A study of Homo sapiens with 6 samples.

Results

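The oxysterol-binding proteins are lipid carriers encoded by a family of related genes, and 10 of these genes were examined here: OSBP, OSBPL1A, OSBPL2, OSBPL3, OSBPL5, OSBPL6, OSBPL8, OSBPL9, OSBPL10 and OSBPL11. They were taken by gene symbol from the 27408 genes of the processed table, as a list chosen with earlier results of these data known, and together they carried 38 RefSeq transcripts. Messenger RNA had been sequenced from PANC-1 and MIA-PaCa2 cells, which are established lines of human pancreatic cancer, grown in medium with serum and given no further treatment. Each line was measured in 3 forms: with the LPCX control, with ESRP1 overexpression and with ESRP2 overexpression. ESRP1 and ESRP2 are paralogous RNA-binding proteins that direct alternative splicing in epithelial cells, and the study asked how they act in pancreatic cancer. The promoter behind the introduced genes, and whether a form is 1 clone or a pool of cells, is not stated in the labels. There was 1 library for each line and construct, 6 in all, so a comparison within a line has no replicates.

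Oxysterol-binding proteins share a lipid-binding pocket that takes up a sterol or phosphatidylserine on one membrane and phosphatidylinositol 4-phosphate on the other. Most of them work where the endoplasmic reticulum touches another organelle, held there by an FFAT motif that binds VAP proteins of the reticulum or by a membrane anchor of their own. Exchange against phosphatidylinositol 4-phosphate, which the phosphatase SAC1 removes at the reticulum, drives the other lipid towards the Golgi apparatus, endosomes or plasma membrane.

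ESRP1 checked the labels: it stood at 367 TPM and 491 TPM in the ESRP1 libraries of MIA-PaCa2 and PANC-1, and at 0.0781 to 0.261 TPM in the other 4. TPM measure the abundance of a transcript per unit of its length within the total of the library, so levels can be compared between genes. ESRP2 stood at 197 TPM and 308 TPM in its own libraries, at 0.0704 and 0.106 TPM in the other MIA-PaCa2 libraries, and at 34.8 and 37.7 TPM in the other PANC-1 libraries, which therefore already held ESRP2 transcripts. The libraries held 10578 to 10932 genes at 5 TPM or more, and how many reads lie behind the values is unknown. Of 7 markers of pancreatic duct epithelium, KRT8, KRT18, KRT19 and SOX9 were above 5 TPM in every library. KRT7 was at 0.176 to 0.475 TPM in MIA-PaCa2 and 1.57 to 2.00 TPM in PANC-1. EPCAM was listed at 0 in MIA-PaCa2 and at 24.3 to 28.2 TPM in PANC-1. CDH1 reached at most 0.173 TPM in MIA-PaCa2, and in PANC-1 it was at 3.89 TPM with LPCX, 8.59 TPM with ESRP1 and 6.98 TPM with ESRP2. Of 4 mesenchymal markers, VIM stood at 4142 to 5620 TPM and ZEB1 at 19.2 to 24.2 TPM over the 6 libraries, FN1 stayed below 1 TPM, and CDH2 was at most 0.0212 TPM in MIA-PaCa2 and 32.4 to 51.8 TPM in PANC-1. Acinar and islet markers did not exceed 3.08 TPM. Among leukocyte markers PTPRC and CD3E did not exceed 0.563 TPM, but CD68 was at 20.5 to 23.3 TPM in MIA-PaCa2 and 295 to 364 TPM in PANC-1. Of 4 markers of fibroblasts and endothelium, COL1A1 was at 66.4 to 108 TPM in PANC-1 and below 1 TPM in MIA-PaCa2. The others were low: DCN did not exceed 0.0393 TPM and PECAM1 0.344 TPM in any library. CDH5 was listed at 0 in PANC-1 and at 1.25 to 2.85 TPM in MIA-PaCa2. Whether these line differences bear on the family was not tested.

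The cell lines differed in the levels of most oxysterol-binding protein genes, and 9 of the 10 were at 3.45 TPM or more in every library. In PANC-1, OSBPL10 was 11.8-fold higher than in MIA-PaCa2 and OSBPL1A 2.41-fold higher, while in MIA-PaCa2 OSBPL3 was 3.27-fold and OSBPL5 3.19-fold higher, by the mean of 3 libraries per line. With limma on log2(TPM + 1), with construct and cell line as terms, 8 of 9 members tested differed between the lines at an adjusted p under 0.05, 3 higher and 5 lower in PANC-1. That comparison called 78.8% of all 11829 genes tested, 43.1% as higher and 35.6% as lower in PANC-1, so the members' share is close to that of other genes. The libraries of the lines did not overlap for 9 of 10 members, against 79.4% of all genes tested. OSBPL6 was below the filter of 5 TPM in at least 2 libraries and was not tested. The family's summed level was similar in the lines, at 317, 331 and 339 TPM in MIA-PaCa2 and 297, 343 and 362 TPM in PANC-1, each time for LPCX, then ESRP1, then ESRP2. Values of a line are given in this sequence of libraries throughout.

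**Figure D1:**
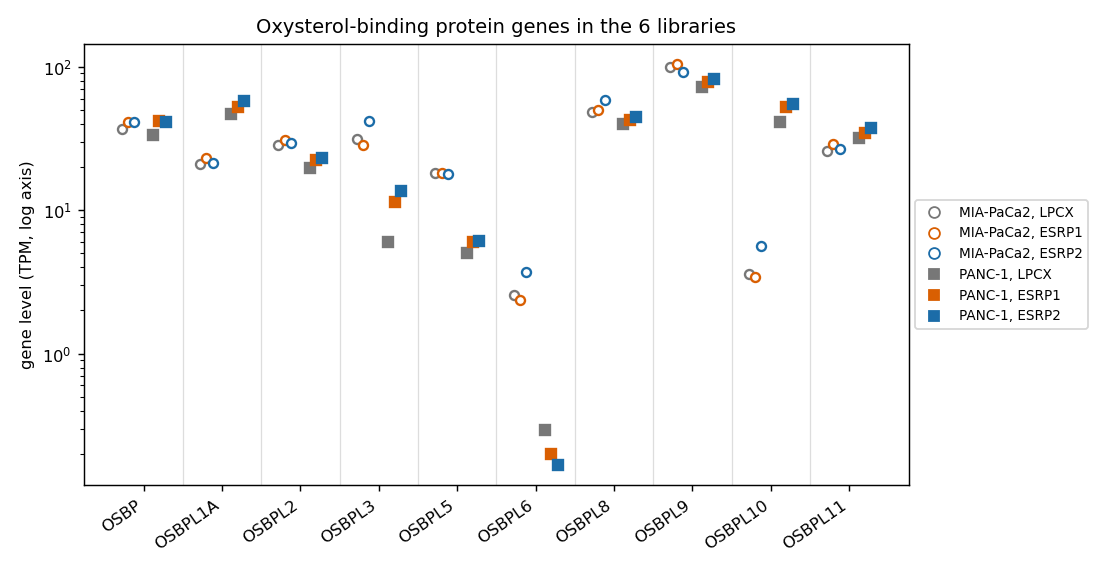
Gene level in TPM on a log axis for the 10 family members, with open circles for MIA-PaCa2, squares for PANC-1 and colour for the construct; each point is 1 library. OSBPL10 and OSBPL1A sit higher in PANC-1, OSBPL3, OSBPL5 and OSBPL6 sit higher in MIA-PaCa2, and the points of OSBP overlap between the lines.

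The first members work at contacts between the endoplasmic reticulum and the Golgi apparatus. OSBP, the founding member, which moves sterol to the trans-Golgi, was at 36.8, 41.4 and 41.5 TPM in MIA-PaCa2 and 33.3, 41.7 and 41.4 TPM in PANC-1. These ranges overlap, and the difference between the lines was -0.04 ± 0.0641 on the log2(TPM + 1) scale (SE, limma, adjusted p = 0.545). OSBPL9 encodes a carrier of phosphatidylserine and phosphatidylinositol 4-phosphate and was the most abundant member in both lines. Its level was 100.2, 105 and 92.0 TPM in MIA-PaCa2 and 72.9, 78.4 and 82.8 TPM in PANC-1. All MIA-PaCa2 libraries were above all PANC-1 libraries, and PANC-1 was lower by a log2 change of -0.34 ± 0.0783 (SE, limma, adjusted p = 0.00932). Without the ESRP1 library of either line the change was -0.30 and the call was lost (limma, adjusted p = 0.0574 both times).

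OSBPL10 and OSBPL11 encode proteins that pair with the OSBPL9 product. OSBPL10 (chr3:31657890-32077580, minus strand, GRCh38) was at 3.60, 3.45 and 5.63 TPM in MIA-PaCa2 and 41.5, 52.9 and 54.8 TPM in PANC-1. Even the lowest PANC-1 library was far above the highest MIA-PaCa2 library, and the log2 change of 3.29 ± 0.118 was the largest in the family (SE, limma, adjusted p = 8.08e-06). OSBPL11 was at 25.9, 28.9 and 26.9 TPM in MIA-PaCa2 and 31.8, 34.5 and 37.8 TPM in PANC-1. It was higher in each PANC-1 library by a modest margin, with a log2 change of 0.34 ± 0.0731 (SE, limma, adjusted p = 0.00723).

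OSBPL5 and OSBPL8 encode members anchored in the endoplasmic reticulum that deliver phosphatidylserine to the plasma membrane. OSBPL5 was at 18.3, 18.3 and 18.0 TPM in MIA-PaCa2 and 5.01, 6.01 and 6.12 TPM in PANC-1. The MIA-PaCa2 libraries were nearly identical to each other and all well above PANC-1, and the log2 change was -1.52 ± 0.0916 (SE, limma, adjusted p = 4.26e-05). OSBPL8, the second most abundant member in MIA-PaCa2, was at 48.3, 50.0 and 59.1 TPM there and 40.1, 42.7 and 44.5 TPM in PANC-1. The groups did not overlap, with a log2 change of -0.30 ± 0.0650 (SE, limma, adjusted p = 0.00760).

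OSBPL1A, whose long product sits on late endosomes with RAB7 and responds to cholesterol, was at 20.9, 23.0 and 21.3 TPM in MIA-PaCa2 and 46.7, 52.6 and 58.0 TPM in PANC-1. Every PANC-1 library was above every MIA-PaCa2 library, and the log2 change was 1.23 ± 0.0795 (SE, limma, adjusted p = 5.50e-05). OSBPL2 encodes a short member without a pleckstrin homology domain and was at 28.6, 30.8 and 29.5 TPM in MIA-PaCa2 and 19.7, 22.3 and 23.2 TPM in PANC-1. MIA-PaCa2 was higher in each library, with a log2 change of -0.43 ± 0.0693 for PANC-1 (SE, limma, adjusted p = 0.00204).

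OSBPL3 and OSBPL6 belong to the same subfamily, and the OSBPL3 product binds R-Ras and VAPA and takes part in cell adhesion. OSBPL3 (chr7:24796539-24981634, minus strand, GRCh38) was at 31.6, 28.4 and 41.6 TPM in MIA-PaCa2 and 5.96, 11.4 and 13.6 TPM in PANC-1. No PANC-1 library reached the MIA-PaCa2 level, and the log2 change was -1.67 ± 0.189 (SE, limma, adjusted p = 0.000474). OSBPL6 was the lowest member in both lines, at 2.55, 2.35 and 3.69 TPM in MIA-PaCa2 and 0.292, 0.2004 and 0.167 TPM in PANC-1. Its MIA-PaCa2 mean was 13.0-fold the PANC-1 mean, without a test. In these bulk libraries, fewer expressing cells and less RNA per cell cannot be told apart.

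Within MIA-PaCa2 the mean level fell in the order OSBPL9, OSBPL8, OSBP, OSBPL3, OSBPL2, OSBPL11, OSBPL1A, OSBPL5, OSBPL10 and OSBPL6. Neighbours whose libraries overlapped were OSBP with OSBPL3, OSBPL3 with OSBPL2, OSBPL2 with OSBPL11, and OSBPL10 with OSBPL6. In PANC-1 the order was OSBPL9, OSBPL1A, OSBPL10, OSBPL8, OSBP, OSBPL11, OSBPL2, OSBPL3, OSBPL5 and OSBPL6. There the 5 genes from OSBPL1A to OSBPL11 each overlapped with the next, as did OSBPL3 with OSBPL5. The spread behind these means was 98.9 ± 6.42 TPM for OSBPL9 and 52.5 ± 5.82 TPM for OSBPL8 in MIA-PaCa2, and 78.1 ± 4.96 TPM for OSBPL9, 52.4 ± 5.66 TPM for OSBPL1A and 49.7 ± 7.16 TPM for OSBPL10 in PANC-1 (mean ± SD, n = 3 libraries with different constructs).

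Gene levels of the family moved little with ESRP1 or ESRP2, and no member passed the test against LPCX. With ESRP1, 0 of 9 members were called by limma (0.00845% of all genes), and 1 had an unadjusted p under 0.05, as did 6.93% of all genes. With ESRP2, 0 of 9 were called (0.0169% of all genes), and 4 had an unadjusted p under 0.05, as did 13.8% of all genes. All 9 estimates were above 0 with each construct, as were 68.3% of all genes with ESRP1 and 65.1% with ESRP2. The members' median log2 change was 0.14 with ESRP1 and 0.17 with ESRP2, beside 0.06 and 0.06 over all genes. Both comparisons share the LPCX libraries. The LPCX library of PANC-1 was the lowest of its line for 9 of 10 members and for the family's sum. Of all genes with at least 5 TPM in either library, 68.8% were above PANC-1 LPCX with ESRP1 and 67.2% with ESRP2. The share above it with both was not counted. Without the PANC-1 LPCX library 6 of 9 estimates were above 0 with ESRP1 and 7 of 9 with ESRP2, beside 62.8% and 60.7% of all genes. OSBPL3, OSBPL5 and OSBPL9 were then below 0 with ESRP1, and OSBPL5 and OSBPL9 with ESRP2. The members' medians were then 0.07 and 0.11, beside 0.04 and 0.04 over all genes. Over all 6 ways of leaving out 1 library, the median ran from 0.07 to 0.21 with ESRP1, highest without MIA-PaCa2 LPCX. With ESRP2 it ran from 0.06 without PANC-1 ESRP2, where it was 0.05 over all genes, to 0.25 without MIA-PaCa2 ESRP2. OSBPL10 with ESRP1 also turned below 0 without PANC-1 ESRP1, and OSBPL9 with ESRP2 without PANC-1 ESRP2 and with median ratio scaling.

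The estimates with an unadjusted p under 0.05 belonged to OSBP with both constructs and to OSBPL3, OSBPL10 and OSBPL8 with ESRP2. OSBP had a log2 change of 0.24 ± 0.0786 with ESRP1 (SE, limma, adjusted p = 0.658) and of 0.23 ± 0.0786 with ESRP2 (SE, limma, adjusted p = 0.333). Within the lines its ratio to LPCX was 0.16 and 0.17 in MIA-PaCa2 against 0.31 and 0.30 in PANC-1, on the same log2 scale. OSBPL3 had the largest estimate, 0.73 ± 0.231 with ESRP2 (SE, limma, adjusted p = 0.331). Its log2 ratios in MIA-PaCa2 were -0.15 with ESRP1 and 0.39 with ESRP2, whereas those in PANC-1 were 0.84 and 1.07. Without the PANC-1 LPCX library the OSBPL3 estimates were -0.07 with ESRP1 and 0.31 with ESRP2. OSBPL10 had 0.46 ± 0.144 with ESRP2 (SE, limma, adjusted p = 0.331), from ratios of 0.53 in MIA-PaCa2 against 0.39 in PANC-1. OSBPL8 had 0.22 ± 0.0796 with ESRP2 (SE, limma, adjusted p = 0.348).

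A 2-fold difference from LPCX within a line was seen once, for OSBPL3 with ESRP2 in PANC-1. Genes with at least 5 TPM in either library were counted, 8 or 9 of the members per comparison. Of all such genes, 1.28% passed 2-fold with ESRP1 and 1.62% with ESRP2 in MIA-PaCa2, while PANC-1 had 1.51% and 1.96%. The members' median log2 ratio was 0.08 and 0.05 in MIA-PaCa2 against 0.17 and 0.24 in PANC-1, beside 0.04, 0.05, 0.09 and 0.10 for all genes. OSBPL1A, OSBPL2, OSBPL5, OSBPL9 and OSBPL11 stayed between -0.12 and 0.31 in all 4 comparisons. The constructs were not separated from each other either: 0 of 9 members were called between ESRP1 and ESRP2 (0.00845% of all genes), and 0 had an unadjusted p under 0.05. The largest such differences were -0.38 ± 0.231 for OSBPL3 and -0.31 ± 0.144 for OSBPL10 (ESRP1 minus ESRP2, SE, limma, adjusted p = 0.952 for each).

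**Figure D2:**
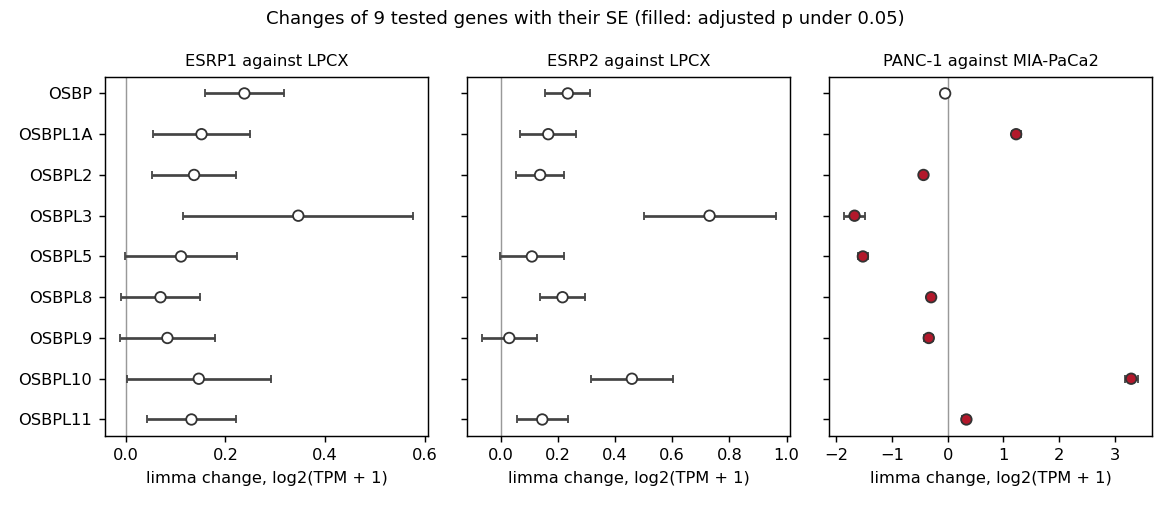
Limma change on the log2(TPM + 1) scale for the 9 members tested, with horizontal bars for the SE, for ESRP1 against LPCX, ESRP2 against LPCX and PANC-1 against MIA-PaCa2; filled points have an adjusted p under 0.05. No point is filled for either construct, 8 of 9 are filled for the cell line, and the horizontal scales differ between panels.

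The transcripts of OSBPL3 were divided differently in ESRP and LPCX libraries. Its RefSeq transcripts vary in 2 coding cassette exons of 93 and 108 nucleotides, both of which keep the reading frame when they are left out. The sequences are shown because the first carries the main difference between ESRP and LPCX libraries, and because OSBPL6 has an exon of the same length at each place. They are from GENCODE release 29 transcripts on GRCh38, with the cassette exon in capitals and 20 bases of the neighbouring exons in lower case, 5′ to 3′ on the strand of the gene. The OSBPL3 exons lie at chr7:24863200-24863292 and chr7:24849069-24849176 on the minus strand, and the OSBPL6 exons at chr2:178339672-178339764 and chr2:178372126-178372233 on the plus strand.
OSBPL3 exon of 93 nucleotides: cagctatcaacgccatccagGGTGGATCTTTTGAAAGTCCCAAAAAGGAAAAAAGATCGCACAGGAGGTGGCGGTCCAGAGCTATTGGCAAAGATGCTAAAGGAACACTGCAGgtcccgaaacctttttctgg
OSBPL6 exon of 93 nucleotides: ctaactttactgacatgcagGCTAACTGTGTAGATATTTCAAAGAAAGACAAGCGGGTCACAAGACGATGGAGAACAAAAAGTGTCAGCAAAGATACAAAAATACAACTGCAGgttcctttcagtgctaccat
OSBPL3 exon of 108 nucleotides: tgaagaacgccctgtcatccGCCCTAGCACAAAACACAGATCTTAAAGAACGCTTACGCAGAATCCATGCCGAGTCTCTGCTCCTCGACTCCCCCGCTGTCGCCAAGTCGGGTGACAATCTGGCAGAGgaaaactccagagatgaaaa
OSBPL6 exon of 108 nucleotides: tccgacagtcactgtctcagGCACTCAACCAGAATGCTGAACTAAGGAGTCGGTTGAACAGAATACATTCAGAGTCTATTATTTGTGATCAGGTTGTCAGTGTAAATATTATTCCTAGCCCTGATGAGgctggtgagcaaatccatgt

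The exons of 93 nucleotides are identical at 51 positions (54.8%) when laid side by side without gaps. Among 1296 other coding exons of that length, the median identity with the OSBPL3 exon was 25.8% and the highest 41.9%. The exons of 108 nucleotides are identical at 49 positions (45.4%), beside a median of 26.9% and a highest value of 40.7% over 1481 others. The motif GGTGG, of the GU-rich kind that ESRP proteins are known to bind in RNA, was searched on the sense strand only. It occurs 2 times in the 93-nucleotide OSBPL3 exon, once at its first base, and in none of the other exons printed above. Of 1298 coding internal exons of 93 nucleotides 12.4% hold it at least once, and of 1483 of 108 nucleotides 12.9% do. The shorter string TGT, counted without overlaps, goes the other way. It occurs 0 times in the 93-nucleotide OSBPL3 exon and 2 times in that of OSBPL6. In the 108-nucleotide exons it occurs 1 time in OSBPL3 and 3 times in OSBPL6. Binding of ESRP proteins to these exons was not tested. The introns beside these exons were not searched.

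Inclusion of the 93-nucleotide OSBPL3 exon was lower in all 4 ESRP libraries than in the LPCX library of the same line. Inclusion, the percentage of TPM in transcripts that contain the exon, out of those that contain or skip it, was 95.9%, 71.8% and 71.1% in MIA-PaCa2 against 82.2%, 65.2% and 59.5% in PANC-1. The differences from LPCX were -24.2 and -24.9 percentage points in MIA-PaCa2 against -17.0 and -22.7 points in PANC-1. Part of the MIA-PaCa2 difference lies in NM_145321 and NR_104111, which hold the exon and were above 0 only in MIA-PaCa2 LPCX, at 7.32% and 6.06%. The share of NM_015550, the remaining transcript with the exon, differed by -10.8 and -11.5 points in MIA-PaCa2 against -17.0 and -22.7 points in PANC-1. Lower by at least 10 points were 4.93% and 4.88% of 2172 cassette exons in 1445 genes in the same MIA-PaCa2 comparisons, and 4.01% and 4.33% in those of PANC-1. Of all these exons, 0.737% were lower by at least 10 points with ESRP1 in both lines, 1.01% with ESRP2 in both lines, and 6 exons (0.276%) in all 4 comparisons, which share the LPCX library of each line. With limma on the log2 odds of inclusion, an analysis added after the data were seen, the change was -1.89 ± 0.457 with ESRP1 (SE, adjusted p = 0.212) and -2.06 ± 0.457 with ESRP2 (SE, adjusted p = 0.130). Neither was called, beside 0.691% and 0.875% of all cassette exons. With 1 library left out at a time the change was -2.74 to -1.03 with ESRP1 and -2.91 to -1.20 with ESRP2, in each case smallest in size without the MIA-PaCa2 LPCX library, and none was called. Without the noncoding NR transcripts inclusion was 97.2%, 82.2% and 83.8% in MIA-PaCa2 against 88.2%, 68.9% and 62.9% in PANC-1.

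**Figure D3:**
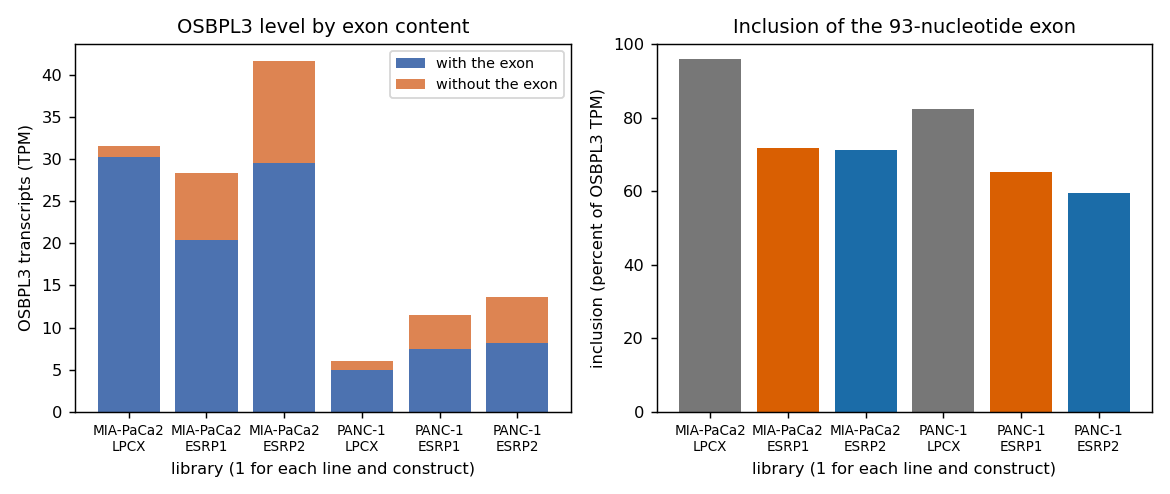
Left, OSBPL3 level in TPM in each library, with the bar split into transcripts with and without the 93-nucleotide exon; right, inclusion of that exon as a percentage of OSBPL3 TPM, 1 bar per library. The part without the exon is 1.29 and 1.06 TPM in the LPCX libraries and 3.99 to 12.1 TPM in the 4 ESRP libraries.

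Expressed as a fold of the LPCX level, the transcripts that skip the exon differed more than those that hold it. In TPM this did not hold for ESRP1 in MIA-PaCa2, where the transcripts with the exon differed more. The folds of the skipping transcripts start from low LPCX levels. OSBPL3 transcripts without the exon stood at 1.29, 8.03 and 12.1 TPM in MIA-PaCa2 and 1.06, 3.99 and 5.52 TPM in PANC-1. This is 6.22-fold and 9.34-fold the LPCX level in MIA-PaCa2 and 3.75-fold and 5.20-fold in PANC-1, with no replicates. Transcripts with the exon stood at 30.3, 20.4 and 29.6 TPM in MIA-PaCa2 and 4.90, 7.46 and 8.11 TPM in PANC-1, or 0.674, 0.978, 1.52 and 1.66 times LPCX. The level without the exon was thus above LPCX in all 4 ESRP libraries. The level with it was above LPCX in PANC-1, while in MIA-PaCa2 it was below LPCX with ESRP1 and near LPCX with ESRP2. The MIA-PaCa2 LPCX level includes NM_145321 at 2.31 TPM and NR_104111 at 1.91 TPM, both listed at 0 in the other libraries. NM_015550, the remaining transcript with the exon, stood at 26.0, 20.4 and 29.6 TPM in MIA-PaCa2.

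The transcripts without the exon were divided differently in the lines. NM_145320, which lacks only the 93-nucleotide exon, was listed at 0 in both LPCX libraries after rounding and took 5.80% and 8.73% of OSBPL3 in MIA-PaCa2 against 21.3% and 32.0% in PANC-1 with ESRP1 and ESRP2. Its log2 odds changed by 2.17 ± 0.326 with ESRP1 (SE, limma, adjusted p = 0.527) and 2.73 ± 0.326 with ESRP2 (SE, limma, adjusted p = 0.316), so neither was called. As NM_145320 was at 0 with LPCX, these sizes depend on the pseudocount of 0.5 TPM added to each value. They were 4.22 and 4.90 at a pseudocount of 0.1 TPM, where again neither was called. NR_104112, a noncoding transcript without that exon, took 1.52%, 12.7% and 15.2% in MIA-PaCa2 but 6.85%, 5.41% and 5.44% in PANC-1. NM_145322, which lacks both cassette exons, took 2.56%, 9.74% and 4.99% in MIA-PaCa2 against 10.96%, 8.13% and 3.06% in PANC-1. The full-length NM_015550 took 82.5%, 71.8% and 71.1% in MIA-PaCa2 against 82.2%, 65.2% and 59.5% in PANC-1. Its share was lower by at least 10 points in all 4 comparisons, with log2 odds of -0.91 ± 0.224 for ESRP1 (SE, limma, adjusted p = 0.779) and -1.08 ± 0.224 for ESRP2 (SE, limma, adjusted p = 0.581). NM_145321 and NR_104111 were above 0 only in the MIA-PaCa2 LPCX library, at 7.32% and 6.06%, and both hold the 93-nucleotide exon.

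The 108-nucleotide exon of OSBPL3 differed by less than 10 points from LPCX in all 4 comparisons. Its inclusion was 90.1%, 90.3% and 95.01% in MIA-PaCa2 against 89.0%, 91.9% and 96.9% in PANC-1, highest with ESRP2 in both lines. The log2 odds changed by 0.31 ± 0.336 with ESRP1 (SE, limma, adjusted p = 0.913) and by 1.26 ± 0.336 with ESRP2 (SE, limma, adjusted p = 0.206), and neither was called. The ESRP2 change has an adjusted p close to that of the 93-nucleotide exon with ESRP1 and the opposite sign. Between ESRP1 and ESRP2 neither OSBPL3 exon was called, as no cassette exon was (0%). The 108-nucleotide exon had a log2 odds change of -0.96 ± 0.336 (ESRP1 minus ESRP2, SE, limma, unadjusted p = 0.0260, adjusted p = 0.588). It was among 139 of 2172 cassette exons with an unadjusted p under 0.05.

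In OSBPL6 the related exons were read from few transcripts, as the gene never reached 5 TPM. Inclusion of its 93-nucleotide exon was 48.9%, 73.5% and 16.0% in MIA-PaCa2, and in PANC-1 it was listed at 0 with LPCX and at 25.2% and 34.7% with ESRP1 and ESRP2. With ESRP1 it was thus higher than with LPCX in both lines, the opposite side from OSBPL3, and with ESRP2 the lines lay on opposite sides of LPCX. These PANC-1 percentages rest on 0.292, 0.2004 and 0.167 TPM. The 108-nucleotide exon was included at 84.9%, 79.0% and 93.1% in MIA-PaCa2 against 100%, 74.8% and 65.3% in PANC-1. NM_001201481, which skips the 93-nucleotide exon, took 51.1%, 26.5% and 84.0% of OSBPL6 in MIA-PaCa2 against 100%, 74.8% and 65.3% in PANC-1. Its share was lower by at least 10 points with ESRP1 in both lines.

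Across the family, OSBPL3 NM_015550 and OSBPL6 NM_001201481 were the 2 transcripts whose share moved by at least 10 points the same way in both lines with ESRP1, and NM_015550 was the 1 with ESRP2. They are among 24 member transcripts that reached 10% of their gene in a library. The genes OSBPL6 and OSBPL10 were below 5 TPM in some library, so their transcripts were not among the 17 member transcripts tested, of which 1 moved so with each construct. Over all 12965 transcripts tested the share that moved so was 1.82% with ESRP1 and 2.4% with ESRP2. No member transcript in a gene at 5 TPM in every library differed between the lines by at least 10 points with every construct, as 10.5% of all transcripts tested did. With limma on log2 odds, 0 of 17 member transcripts tested were called with ESRP1 (0.00771% of 12965) and 0 with ESRP2 (0%), with 2 at an unadjusted p under 0.05 for each construct, as were 5.71% and 6.36% of all transcripts tested. Each time these were NM_015550 and NM_145320 of OSBPL3, which are parts of the same gene total and so not independent. Between ESRP1 and ESRP2, 0 of 17 were called (0%) and 0 had an unadjusted p under 0.05.

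**Figure D4:**
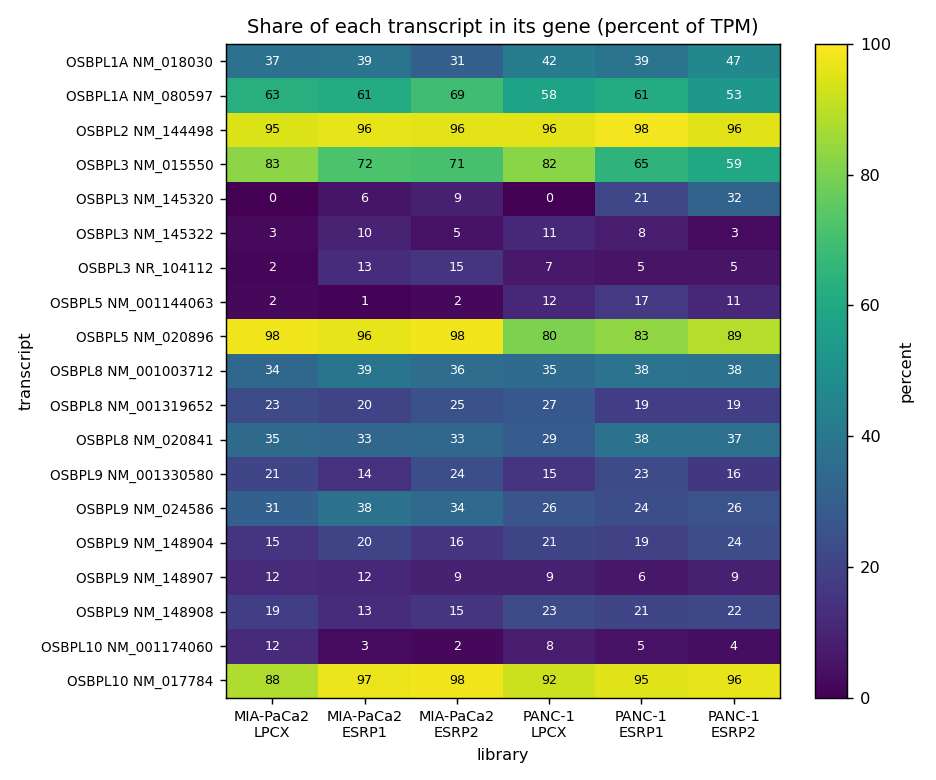
Share of each transcript in its gene, in percent of TPM, for member transcripts with at least 10% of the gene in a library, in genes of more than 1 transcript that reach 5 TPM in a library; columns are the 6 libraries and colour runs from 0 to 100. NM_015550 and NM_145320 of OSBPL3 differ between the LPCX and ESRP columns of both lines, and NM_020896 of OSBPL5 differs between the lines.

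No transcript of OSBPL1A, OSBPL2, OSBPL5, OSBPL8, OSBPL9 or OSBPL10 moved by 10 points from LPCX with either construct in either line. Some transcripts of OSBPL3 and OSBPL6 did, as given above. Of the 12965 transcripts tested, 1401 moved so with ESRP1 in PANC-1, while MIA-PaCa2 had 1671. With ESRP2 these counts were 1572 and 1903. OSBPL1A was split between NM_080597, which encodes the long protein, at 53.1% to 69.5%, and NM_018030, which begins at a first exon of its own and encodes the short protein without ankyrin repeats, at 30.5% to 46.9%. OSBPL2 came almost whole from NM_144498, at 94.8% to 98.3%. OSBPL10 was mainly NM_017784, at 88.1% to 97.9%, and the other transcript, NM_001174060, lacks a coding exon of 192 nucleotides and had 2.08% to 11.9%. OSBP and OSBPL11 have 1 transcript each in the table.

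OSBPL8 was shared by 3 transcripts in every library. NM_001003712 took 33.6% to 39.03% of it, NM_020841 took 28.96% to 37.7% and NM_001319652 took 18.6% to 27.5%. OSBPL9 was the most divided member, with NM_024586 at 23.9% to 37.9%, NM_148908 at 12.8% to 23.4%, NM_148904 at 14.97% to 23.7%, NM_001330580 at 14.3% to 23.8% and NM_148907 at 6.46% to 11.9%. A 39-nucleotide coding exon of OSBPL9 (chr1:51756320-51756358, plus strand) was included at 42.6%, 47.5% and 46.4% in MIA-PaCa2 against 37.0%, 39.3% and 35.1% in PANC-1. Every MIA-PaCa2 library was above every PANC-1 library, the nearest at 42.6% and 39.3%, but no construct moved inclusion by 10 points. How many other exons were apart between the lines in this way was not counted. This value leaves out NM_001330580, which has no paired annotation, and the paired transcripts held at least 76.2% of the gene. That is below the 90% required of a cassette exon, so this exon was not tested.

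Between the lines, 3 of 17 member transcripts were called by limma, beside 17.3% of all transcripts tested. The OSBPL5 transcripts among them are parts of the same gene total, so their changes are not independent. OSBPL5 NM_020896 took 98.0%, 96.5% and 97.8% in MIA-PaCa2 against 80.3%, 83.5% and 88.8% in PANC-1, with a change in log2 odds of -2.31 ± 0.243 (SE, limma, adjusted p = 0.0112). OSBPL5 NM_001144063 took 1.96%, 1.09% and 2.19% in MIA-PaCa2 against 11.5%, 16.5% and 11.2% in PANC-1, a change of 2.36 ± 0.311 (SE, limma, adjusted p = 0.0158). In PANC-1 that transcript stood at 0.577 to 0.993 TPM, and in MIA-PaCa2 at 0.199 to 0.394 TPM, below the pseudocount of 0.5 TPM. The size of its change therefore depends on the pseudocount and on the gene level, and was 2.87 at a pseudocount of 0.1 TPM. The third was OSBPL3 NM_145320, with 2.16 ± 0.266 (SE, limma, adjusted p = 0.0147). It was listed at 0 in both LPCX libraries after rounding. Its odds in those libraries therefore reflect only the pseudocount of 0.5 TPM and the OSBPL3 level, 31.6 TPM in MIA-PaCa2 and 5.96 TPM in PANC-1. The calls of NM_001144063 and NM_145320 were lost without any 1 of the 6 libraries (limma, adjusted p from 0.0570 to 0.0863 and from 0.0524 to 0.0771), and that of NM_020896 without the ESRP1 library of either line (limma, adjusted p = 0.0598 and 0.0588). Inclusion of the 93-nucleotide OSBPL3 exon was lower in PANC-1 than in MIA-PaCa2 with each construct, but the log2 odds change of -1.17 ± 0.373 did not pass (SE, limma, adjusted p = 0.0572, with 27.5% of cassette exons called).

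The proteins that work with the family at membrane contacts were counted from a list of 39 genes, of which 37 were tested. With ESRP1 0 were called and 3 had an unadjusted p under 0.05, and with ESRP2 0 were called and 4 had an unadjusted p under 0.05 (limma), counts to be read against the 6.93% and 13.8% of all genes. No gene of the list passed 2-fold against LPCX in either line. Between the lines 27 of 37 were called, 15 higher and 12 lower in PANC-1, beside 78.8% of all genes. Those with the largest line differences carry cholesterol: STARD4, a soluble sterol carrier, had a log2 change of 5.55 ± 0.102 (SE, limma, adjusted p = 1.68e-06), and GRAMD1B, a sterol transporter of the endoplasmic reticulum, one of -4.71 ± 0.157 (SE, limma, adjusted p = 6.48e-06). STARD4 was at 0.0956 to 0.274 TPM in MIA-PaCa2 and 53.1 to 56.4 TPM in PANC-1. GRAMD1B was at 19.96 to 33.9 TPM in MIA-PaCa2 and at most 0.147 TPM in PANC-1.

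Genes for sterol export from lysosomes and for phosphatidylserine synthesis were higher in PANC-1, with log2 changes of 1.54 for NPC1, 1.48 for NPC2, 1.55 for PTDSS2 and 0.85 for PTDSS1. PI4K2B, a kinase that makes phosphatidylinositol 4-phosphate, was lower in PANC-1 by a log2 change of -1.04, and MOSPD2, an anchor that binds FFAT motifs, by -0.97. The anchors VAPA and VAPB had changes of 0.10 and 0.12 and were not called (limma, adjusted p = 0.169 and 0.195). VAPA was at 51.5 to 58.4 TPM and VAPB at 17.2 to 21.0 TPM over the 6 libraries. Of the remaining family members, OSBPL7, in the subfamily of OSBPL3 and OSBPL6, was higher in PANC-1 by 1.22 ± 0.151 (SE, limma, adjusted p = 0.000700), and OSBP2 by 0.44 ± 0.115 (SE, limma, adjusted p = 0.0145).

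Further called genes of the list differed less, or by a similar amount. Higher in PANC-1 were PITPNM2 (log2 change 1.21) and INSIG1 (1.07), the second a brake on sterol synthesis, and also RRAS (0.65), ESYT1 (0.59), PI4K2A (0.37), SACM1L (0.32) and RILP (0.26). Lower were STARD3 (log2 change -0.83), PITPNA (-0.68), PIP5K1C (-0.68), ESYT2 (-0.64), PIP5K1A (-0.56), PI4KA (-0.52), SCAP (-0.45), PITPNB (-0.36) and SREBF2 (-0.21). RRAS and RILP encode partners of the OSBPL3 and OSBPL1A products, R-Ras and an effector of RAB7, and SACM1L encodes SAC1.

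By a distance over the 6 libraries in percentage points, the cassette exon most like the 93-nucleotide OSBPL3 exon was a 234-nucleotide coding exon of ARHGAP17 (chr16:24939364-24939597), at 12.7 points. Its inclusion was 90.4%, 71.3% and 79.5% in MIA-PaCa2 against 84.2%, 61.2% and 65.8% in PANC-1. Exons of JAG2 (17.9 points), FLNA (18.0), AKAP13 (21.4) and TOGARAM1 (22.2) followed. For the OSBPL3 gene level, the genes with the highest Pearson correlation of log2(TPM + 1) were PPM1A, USB1, CLINT1, SYNRG and VANGL1, from 0.997 to 0.999 over 6 libraries. The line difference dominates that likeness, as the libraries fall into 2 lines, and the values are a description.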

How the data were processed

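The submitters' processing notes name Salmon and GRCh38 (hg38), without versions. The authors deposited TPM of RefSeq transcripts. Of 67792 lines 8664 repeat a transcript with other lines of the same values, and without them each library sums to 1000000 over 59128 transcripts. Depth is unknown. Columns were matched to samples by line and construct, and the columns of MIA-PaCa2 with ESRP2 (headed ESRP12) and with LPCX (spelled differently) by elimination. Gene totals were fitted with limma 3.58.1 (R 4.3.3) with a trend on log2(TPM + 1), for genes with at least 5 TPM in 2 libraries, with construct and line as terms and 2 residual degrees of freedom; the spread is how a construct's effect differs between lines. P-values measure only the spread between these libraries. Transcript and exon odds used a pseudocount of 0.5 TPM; transcripts had at least 10% of their gene in a library, in genes of 2 or more transcripts and 5 TPM in every library. Benjamini-Hochberg adjustment ran over all features, at 0.05. RefSeq transcripts were paired one-to-one with GENCODE 29 (68.6% of transcripts, at least 82.0% of TPM). Cassette exons needed 90% of the gene paired, 5 TPM, and inclusion of at least 5% in some library and at most 95% in some library. The fits were also run on simulated data, whose outcome is not given here. The simulated shifts were the same in both lines and larger than the construct changes of member genes. Smaller changes, and changes that differ between the lines, were not simulated. All members are named, and of their transcripts those with at least 10%. The values of 1 listed partner gene are not reported here. The members and lists were chosen with earlier results of these data known. Pseudocounts, filters, scaling, the trend, repeated lines, NM transcripts and left-out libraries were varied.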

Additional observations from a re-analysis of the deposited data

Results flagged for a closer look

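The share of OSBPL6 NM_001201481, the transcript that skips the 93-nucleotide exon, moved in opposite directions in the lines with ESRP2. It was 33.0 points above LPCX in MIA-PaCa2 and -34.7 points from LPCX in PANC-1, so that the PANC-1 difference minus the MIA-PaCa2 difference was -67.6 points. Each line has 1 library per construct, and the difference between the lines was not tested. OSBPL6 reached at most 3.69 TPM in MIA-PaCa2 and 0.292 TPM in PANC-1.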

How the results depend on the processing

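The constructs were compared within lines, with the cell line as the block in every fit, and the labels carry no replicate numbers that could pair libraries in another way. The number of genes called with ESRP2 was 2, and became 0 with a pseudocount of 0.1 TPM, 0 with no filter, 1 with no trend, and 0 to 30 with 1 library left out. Between ESRP1 and ESRP2 it was 1, and 1 to 23 with 1 library left out. Transcripts called with ESRP1 went from 1 to 0 with a pseudocount of 0.1 TPM, with no trend and with any library left out (0 to 0). Transcripts called with ESRP2 went from 0 to 2 with a gene filter of 10 TPM. Between the lines, 2238 transcripts became 1466 with a pseudocount of 0.1 TPM and 207 to 401 with 1 library left out, where 1 residual degree of freedom remains. At 1.5-fold instead of 2-fold, 315, 434, 361 and 489 genes were counted (ESRP1 and ESRP2 in MIA-PaCa2, then in PANC-1) against 138, 176, 168 and 218. At 20 instead of 10 points, 341, 386, 236 and 301 transcripts were counted against 1671, 1903, 1401 and 1572. With NM transcripts only, inclusion of the 93-nucleotide OSBPL3 exon was 97.2%, 82.2% and 83.8% in MIA-PaCa2 against 88.2%, 68.9% and 62.9% in PANC-1.

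Of the alternatives for member genes, 307 kept direction and side of the threshold, 2 lost a call (OSBPL9 between the lines) and 10 changed sign, all in estimates that had not been called. With 1 library left out at a time the log2 change with ESRP1 ran from -0.071 to 0.763 for OSBPL3, -0.0123 to 0.234 for OSBPL5, -0.00234 to 0.169 for OSBPL9 and -0.0827 to 0.376 for OSBPL10. With ESRP2 it ran from -0.0139 to 0.232 for OSBPL5 and -0.111 to 0.171 for OSBPL9, which was -0.0155 with median ratio scaling, and between the lines from -0.0720 to 0.00326 for OSBP. The lowest values came without the PANC-1 LPCX library, except for OSBPL9 with ESRP2 (without PANC-1 ESRP2), OSBPL10 (without PANC-1 ESRP1) and OSBP. Alternatives were run for the 4 member transcripts whose limma values are given, OSBPL3 NM_015550 and NM_145320 and OSBPL5 NM_001144063 and NM_020896. Of these 85 kept their side, 14 lost a call, 1 gained one and 8 changed sign, the last all in uncalled contrasts of OSBPL5. With 1 library left out the log2 odds of NM_001144063 ran from -0.363 to 0.363 with ESRP1 and -0.281 to 0.242 with ESRP2 (0.0329 at a pseudocount of 0.1 TPM), and those of NM_020896 from -0.463 to 0.300 with ESRP1 and -0.0672 to 0.695 with ESRP2. The gain was OSBPL3 NM_015550 between the lines, at -1.09 with NM transcripts only (limma, adjusted p = 0.0461). The cause of these changes was not tested. Transcript shares come from a quantification that divides reads between overlapping transcripts, junction reads were not used here, and the unknown depth leaves values below about 1 TPM without a known precision.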
